A study of Mus musculus with 2 samples.

Results

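Cytosolic ribosomal protein genes encode the proteins of the large and small subunits of the ribosome that works in the cytoplasm. They were taken as the protein-coding genes of the GENCODE vM21 mouse annotation whose symbol is Rpl or Rps followed by a number, with an optional a, l or x, together with Rplp0, Rplp1, Rplp2 and Rpsa. The rule gave 80 of 21938 protein-coding genes, 49 of the large subunit and 31 of the small subunit. Ribosomal S6 kinases and pseudogenes were left out, and so was Rps4l, which the annotation holds as a pseudogene. Rps3a1, whose symbol does not match the rule, was left out as well.

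Open chromatin was measured by DNase-seq, in which DNase I cuts DNA that is not covered by nucleosomes and the cut ends are sequenced. The study has 1 group of 2 libraries, replicate 1 and replicate 2, both labelled as thymus tissue from male B6CASTF1/J mice aged 36 days. B6CASTF1/J mice are first-generation hybrids of a laboratory strain and a strain from another mouse subspecies, so each gene has 1 allele of each parent, and the files do not separate the alleles. The labels call the libraries separate biological replicates and number the animals differently, but give both the same donor identifier. With 1 group of 2 libraries no test across samples is possible, and the values of each library are given side by side.

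The library labelled replicate 1 went against its thymus label by its markers, and whether it is thymus is not settled. Of 12 thymocyte markers (among them Cd3e, Cd4, Cd8a, Rag1 and Bcl11b), the library labelled replicate 1 had a promoter peak at 1, Lck, and replicate 2 at 12. The summed promoter signal of these markers was 5.72 and 80.6. Of 12 markers of pancreatic acinar cells, replicate 1 had a promoter peak at 11 and replicate 2 at 4, with summed signals of 62.8 and 12.5. Thymic epithelium markers were open at 4 and 3 of 7, and B cell markers at 0 of 4 in both. The part of this difference in the values below was not tested, and each value is therefore given per library.

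Every ribosome holds 1 copy of most of these proteins, and growing cells need all of them in matched amounts, so their genes are transcribed strongly in nearly every cell type. Their promoters are short, lie in CpG islands and mostly lack a classical TATA box. Their messenger RNAs begin with a C followed by a run of pyrimidines, the terminal oligopyrimidine tract, through which growth signals control their translation. A few family members are paralogs used in certain tissues only, such as Rpl3l in muscle and Rpl10l and Rpl39l in testis.

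The sequences at the strongest and the weakest promoters are shown with their footprints marked. Which proteins, if any, lay on these bases was not tested. Each runs from 90 bases before the principal transcript start through 20 bases from it on, in the direction of transcription, read from GRCm38.p6, the reference build that the mm10 files use. Capitals mark bases under a footprint, a stretch protected from DNase I inside open chromatin, in both libraries. The first 4 are the strongest and the last 3 the weakest promoters whose peak covers that start in both libraries.
Rplp0: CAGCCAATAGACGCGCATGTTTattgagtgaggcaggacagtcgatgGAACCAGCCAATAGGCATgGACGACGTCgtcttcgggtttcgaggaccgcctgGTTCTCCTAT
Rpl7a: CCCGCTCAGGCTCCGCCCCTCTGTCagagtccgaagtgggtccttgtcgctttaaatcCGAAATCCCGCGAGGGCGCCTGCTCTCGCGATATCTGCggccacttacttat
Rps12: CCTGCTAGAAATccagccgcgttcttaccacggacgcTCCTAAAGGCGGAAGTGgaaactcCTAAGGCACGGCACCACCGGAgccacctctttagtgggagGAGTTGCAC
Rpl23: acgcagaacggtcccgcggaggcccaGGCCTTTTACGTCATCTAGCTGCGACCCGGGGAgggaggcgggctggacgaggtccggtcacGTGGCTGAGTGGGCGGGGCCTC
Rpl6: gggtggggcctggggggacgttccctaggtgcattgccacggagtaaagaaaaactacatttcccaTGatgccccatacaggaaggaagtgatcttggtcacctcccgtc
Rps4x: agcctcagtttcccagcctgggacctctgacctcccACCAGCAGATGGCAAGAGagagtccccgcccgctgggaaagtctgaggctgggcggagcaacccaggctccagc
Rpl10: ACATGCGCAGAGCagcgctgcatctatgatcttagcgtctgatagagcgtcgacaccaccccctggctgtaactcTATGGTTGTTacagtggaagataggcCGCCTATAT

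In the same order, these stretches are chr5:115559377-115559486 (plus strand), chr2:26910674-26910783 (plus strand), chr10:23787256-23787365 (minus strand), chr11:97782418-97782527 (minus strand), chr5:121204391-121204500 (plus strand), chrX:102189375-102189484 (minus strand), chrX:74270722-74270831 (plus strand). Of their 110 bases, 59, 63, 59 and 55 lay under footprints of both libraries at Rplp0, Rpl7a, Rps12 and Rpl23. At Rpl6, Rps4x and Rpl10 the numbers were 2, 18 and 32. By replicate 1 alone, Rplp0, Rpl7a, Rps12 and Rpl23 had 60, 63, 61 and 55 such bases. Rpl6, Rps4x and Rpl10 had 13, 18 and 79 in that library. By replicate 2 alone the numbers in the same order were 63, 67, 64 and 55, then 7, 27 and 33. Rpl10 thus had the most of these stretches in replicate 1, and its low shared number came with a difference between the libraries. The Rpl6 peak ran from -20 to 319 in both libraries, so most of the stretch shown lay before it. That peak held 8 footprints in replicate 1 and 7 in replicate 2. The Rplp0 stretch held 2 matches to the CCAAT box, bound by NF-Y, at -89 and -38, counted from the start base as 0. The Rpl23 stretch held a variant of the cAMP response element (TGACGTA) at -57.

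Promoters of ribosomal protein genes were open almost without exception. A promoter was called open when a peak of the shorter deposited list overlapped the 1 kb on either side of any annotated transcript start. In replicate 1, 77 of 80 genes (96.25%) were open, against 63.1% of all protein-coding genes. In replicate 2, 77 of 80 were open, against 60.1% of all. The same 77 genes were open in both libraries, against 56.7% of all.

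The 3 closed genes were Rpl3l, Rpl10l and Rpl39l, all paralogs. No base within 1 kb of the principal start of any of them had an FDR below 0.001 in either library. Their nearest peaks lay 3260, 805461 and 22553 bp from a transcript start in replicate 1, in that order, and 3260, 1025601 and 102173 bp in replicate 2. Rpl10l had a peak in the longer list of replicate 2, where the lowest FDR was 0.0170. Rps27l, a paralog of Rps27 that is induced by p53, was open in both libraries, with signals of 4.44 and 10.05. Thus 1 of the 4 paralogs was open, and all of the other 76 genes.

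Other genes of protein synthesis were open about as often. All 78 mitochondrial ribosomal protein genes and all 15 ribosome assembly genes, such as Bop1 and Dkc1, were open in both libraries. Of 55 genes with symbols beginning in Eif, which are initiation factors and some of their regulators, such as the Eif2ak kinases and the Eif4ebp inhibitors, 52 were open. Of 13 genes with symbols beginning in Eef1 or Eef2, which are elongation factors and the enzymes that modify them, 12 were open. Fau, which encodes a ribosomal protein fused to a ubiquitin-like protein, was open. Of the copies left out by the rule (Rpl36al, Rpl22l1, Rpl7l1 and Rps27rt), 3 were open, and Rps27rt was closed in both libraries. Rps3a1, also left out, was open in both, with signals of 11.5 in replicate 1 and 28.1 in replicate 2.

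The signal of the strongest promoter peak, the value the authors deposited per peak, was above that of most open promoters. Its median over the 77 open genes was 6.38 in replicate 1 (lowest 2.80, highest 14.8) and 11.5 in replicate 2 (lowest 3.01, highest 29.4). Over all open protein-coding promoters the median was 4.75 and 7.84. Since the scale of the signal may differ between libraries, each gene was also ranked within its library: the median percentile among open promoters was 69.8 in replicate 1 and 68.1 in replicate 2. Of the 77 genes, 60 (77.9%) had a mean percentile of at least 50, against 53.8% of all genes open in both libraries. A mean percentile of at least 90 was reached by 13 (16.9%), against 9.15%.

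The strongest promoter was that of Rplp0, which encodes the base of the ribosomal stalk, the arm that recruits translation factors. Its signal was 14.8 in replicate 1 and 29.4 in replicate 2, a mean percentile of 99.5. Its partners in the stalk were nearer the middle of the family. Rplp1 had signals of 6.41 and 13.6, and Rplp2 of 5.86 and 11.3.

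Rpl7a, of the large subunit, followed with 13.4 and 25.7, and Rps12, of the small subunit, with 11.5 and 22.4. The other 7 of the first 10 were Rpl23, Rps28, Rpl9, Rpl10a, Rpl3, Rpl26 and Rps19, with mean percentiles from 91.2 to 94.3. Rps19, which is mutated in Diamond-Blackfan anaemia, was less even than the rest, with signals of 11.99 and 15.5 and percentiles of 98.2 and 84.1. Rpl3, a core protein of the peptidyl transferase centre, had signals of 9.34 and 19.6 while its paralog Rpl3l had no peak.

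At the other end, Rpl6 had the lowest signals in either library, 2.80 and 3.01, at a mean percentile of 24.4. Next came Rps4x (2.81 and 4.65), Rpl10 (2.96 and 5.01), Rpl23a (4.03 and 3.69), Rps26 (4.02 and 4.26) and Rpl39 (3.23 and 6.06). These 6 promoters were open in both libraries but ranked below most open promoters of the genome. Rpl10 and Rpl39, at mean percentiles of 30.9 and 35.5, are the broadly used counterparts of the closed Rpl10l and Rpl39l.

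**Figure D1:**
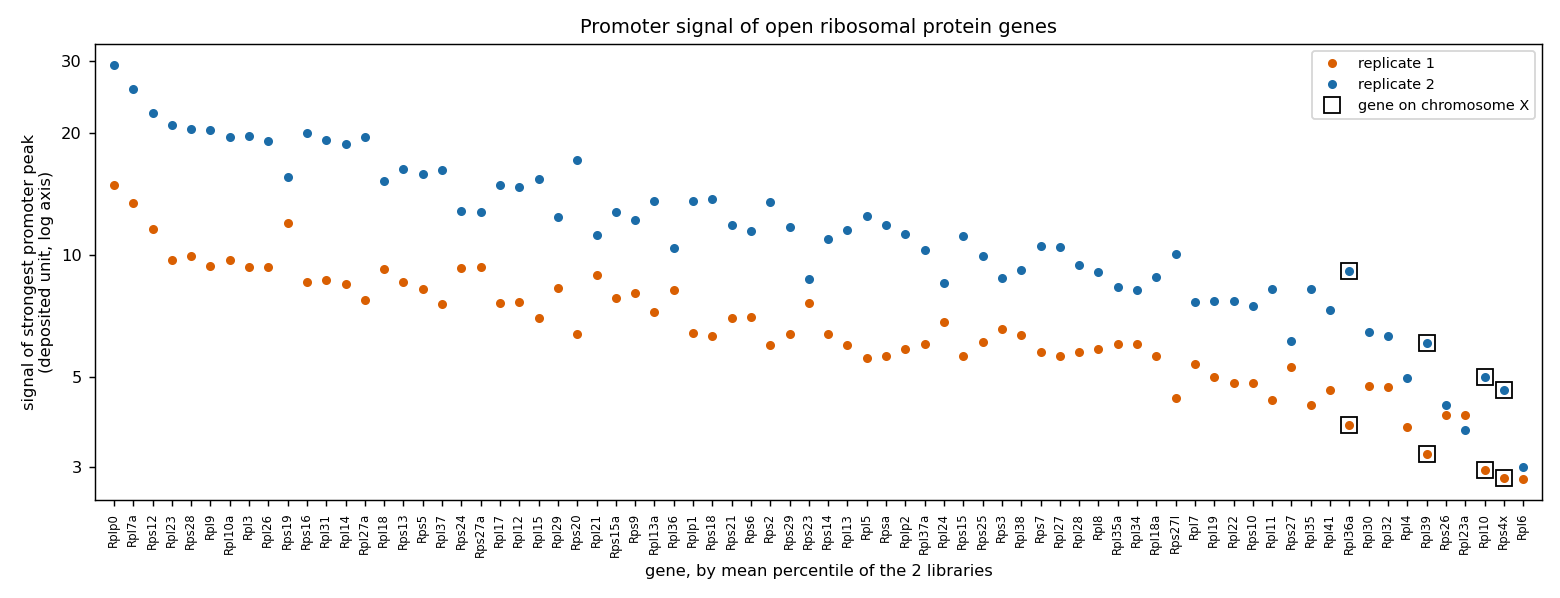
Signal of the strongest promoter peak (log axis, deposited unit) of open ribosomal protein genes in replicate 1 (orange) and replicate 2 (blue), ordered by mean percentile, with genes on chromosome X boxed. Rplp0 stands first at 14.8 and 29.4, and Rpl6 last at 2.80 and 3.01.

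The subunits overlapped widely. In replicate 1 the median signal was 6.03 for the 46 open genes of the large subunit and 6.56 for the 31 of the small subunit. In replicate 2 it was 10.4 and 11.8. The quartiles of the percentile in replicate 1 ran from 51.3 to 86.2 for the large and from 61.7 to 86.96 for the small subunit. The small subunit had no closed gene, and the large subunit held all 3.

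Of the 6 weakest promoters, 3 belong to genes on chromosome X, which male cells carry as 1 copy. The family has 4 X-linked members, all open: Rps4x and Rpl10 with the values above, Rpl39, and Rpl36a with 3.80 and 9.14. Their median signal was 3.09 in replicate 1 and 5.54 in replicate 2, against 6.41 and 11.7 for the 73 open autosomal members, or 0.483 and 0.473 of the autosomal level. In replicate 1, 2 of the 73 autosomal members lay below the highest X-linked one, and in replicate 2, 22 did. Open X-linked promoters of other genes stood at nearly the same ratio, 0.471 (412 against 13350 promoters) and 0.480 (396 against 12699). The comparison by chromosome was chosen after the values were seen, and it was not tested.

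**Figure D2:**
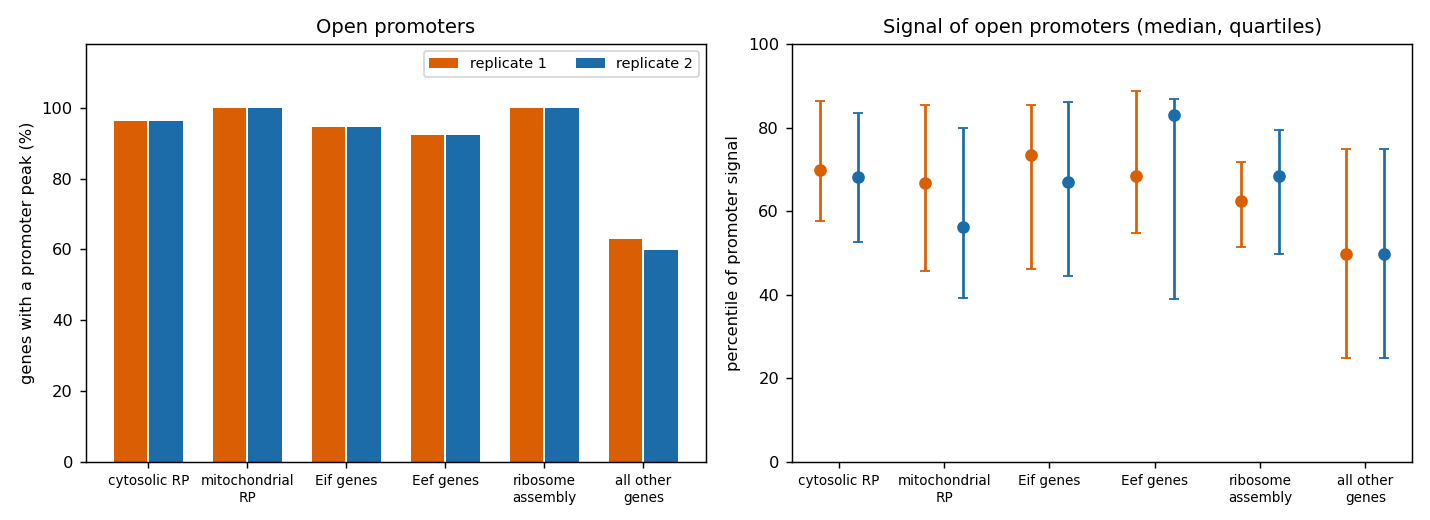
Share of genes with a promoter peak (left, bars) and percentile of the promoter signal of the open ones (right, points are medians and bars the quartiles) in replicate 1 (orange) and replicate 2 (blue) for cytosolic and mitochondrial ribosomal protein (RP) genes, other genes of protein synthesis and all other protein-coding genes. Cytosolic ribosomal protein promoters are open in 96.25% of genes and centre at percentiles 69.8 and 68.1.

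Genes of the same process had like signals. Mitochondrial ribosomal protein promoters had median percentiles of 66.7 in replicate 1 and 56.2 in replicate 2, the Eif genes of 73.4 and 66.9, the Eef genes of 68.5 and 83.1, and ribosome assembly genes of 62.4 and 68.4. The quartiles of the cytosolic family, 57.5 to 86.4 in replicate 1 and 52.6 to 83.5 in replicate 2, overlapped those of each. Differences between these sets were not tested.

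The order of the genes was much the same in the 2 libraries. Spearman's rho between the signals was 0.870 over the 77 genes and 0.816 over the 12436 genes open in both, as a description across genes of libraries that may share a donor. The signal was higher in replicate 2 at 76 of the 77 genes, against 83.0% of all genes open in both, with a median ratio of replicate 2 over replicate 1 of 1.83 (quartiles 1.45 and 2.04), against 1.72 over all genes open in both. The other 4046 genes with mean percentiles between the family's quartiles, 53.8 and 83.1, had a median ratio of 1.84, and the 39 members within that range of 1.70. In rank, 30 of the 77 (39.0%) stood higher in replicate 2, against 48.2% of all genes open in both, and the median change was -1.16 percentile points, against -0.47.

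Single genes departed from that ratio. It was highest at Rps20 (2.68, from 6.38 to 17.1), Rpl27a (2.52, from 7.72 to 19.5), Rpl36a (2.40) and Rps16 (2.33, from 8.58 to 20.003). It was lowest at Rpl23a (0.916), the 1 gene with the higher signal in replicate 1, then at Rps26 (1.06) and Rpl6 (1.07). These last 3 had mean percentiles from 24.4 to 35.1. With 1 library on each side, no error can be given for these ratios. Small nucleolar RNAs guide the modification of ribosomal RNA. The 29 genes with one annotated inside the gene on the same strand had a median ratio of 1.92 (quartiles 1.36 and 2.10). The other 48 open genes had 1.65 (quartiles 1.48 and 1.99), and the difference was not tested.

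The promoter peaks were about as wide as those of other genes. The strongest promoter peak had a median width of 260 bp in replicate 1 and 220 bp in replicate 2, against 240 and 220 bp over all open promoters. It was wider in replicate 1 at 55 of the 77 genes, wider in replicate 2 at 12 and equal at 10. Over all genes open in both, 58.6% were wider in replicate 1, against 71.4% here. The strongest peaks of the 2 libraries overlapped at all 77 genes, against 89.5% of all genes open in both. In replicate 1, 40 of the 77 (51.9%) had a single promoter peak, against 33.6% of all open genes, and in replicate 2, 49 (63.6%), against 46.7%.

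The widest peaks were not the strongest ones. By the mean of both libraries, the widest strongest peaks were those of Rpl10 (740 and 540 bp) and Rpl39 (540 and 440 bp), both X-linked and weak, then Rps25 (500 and 460 bp) and Rpl30 (460 and 480 bp). The narrowest by that mean were those of Rpl27a (60 and 220 bp), Rpl18 (180 and 120 bp), Rpl3 (120 and 200 bp) and Rpl17 (200 and 160 bp). Spearman's rho between signal and width over the 77 genes was -0.39 in replicate 1 and -0.23 in replicate 2, against -0.08 and 0.03 over all genes open in both. In replicate 1, Rpl27a had 3 promoter peaks where replicate 2 had 1.

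Bases of low FDR were counted around the start as well, whether or not they were contiguous or lay in further peaks. Within 1 kb of the principal start, a median of 1036 bases in replicate 1 and 975 in replicate 2 had an FDR below 0.001, against 552 and 373.5 over all protein-coding genes, closed ones included. Open genes of other kinds with signals in the family's middle range had medians of 1209 and 1073. The base of lowest FDR lay close to the start, at a median of -4.5 in replicate 1 and -24.5 in replicate 2 over the 60 and 58 genes whose strongest peak covered that start.

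The strongest peak covered the principal start at 60 of 77 genes in replicate 1 (77.9%) and 58 in replicate 2 (75.3%), against 58.4% and 58.9% of all open genes. With any annotated start of the gene, the numbers were 69 (89.6%) and 71 (92.2%), against 72.1% and 73.6%. In both libraries the peak lay wholly downstream of the principal start at 10 genes (Rpl12, Rpl18, Rpl30, Rpl35, Rpl41, Rps10, Rps23, Rps25, Rps26 and Rps27a) and wholly upstream at 5 (Rpl4, Rpl7, Rpl13a, Rpl19 and Rps19). Of the 12359 other genes open in both libraries, 1683 had it wholly downstream in both, a like share, and 1964 wholly upstream. At Rpl18 the strongest peak was 2444 to 2623 bp downstream in replicate 1 and 2564 to 2683 bp in replicate 2, at another annotated start. The strongest peak near the principal start of Rpl18 had signals of 6.05 and 14.2, against 9.23 and 15.2.

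Some of these peaks hold the start of a neighbour as well. At 10 genes the strongest peak of replicate 2 covered a start of another protein-coding gene, such as Zwilch at Rpl4, Rab13 at Rps27, Lias at Rpl9, Ndufa7 at Rps28 and Med22 at Rpl7a. The share of such peaks over all open genes is not given here, so whether 10 is many or few cannot be said. The signal of such a peak cannot be divided between the genes. The median mean percentile was 80.5 for these 10 genes and 66.9 for the other 67.

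Footprints were found at every open member, as at nearly all open genes (13599 of 13843 in replicate 1 and 13059 of 13176 in replicate 2). The promoter peaks of a gene held a median of 7 footprints in replicate 1 (2 to 19) and 6 in replicate 2 (2 to 22), the same medians as over all open genes. By the mean of both libraries, Rps18 had the most, 19 and 18, followed by Rpl7 (15 and 18), Rps14 (9 and 22) and Rpl10 (18 and 12). These counts take in peaks near any annotated start, some far from the principal one. In replicate 2, many of the Rps14 footprints lay between -27523 and -25870 from the principal start. Several of the Rps18 footprints in that library lay 4125 to 4264 bases downstream of it. By the same mean Rpl7a and Rpl23, among the strongest promoters, had the fewest, 3 and 2 each, then Rpl26 (4 and 2) and Rpl13 (4 and 3). The number went with the summed length of the promoter peaks (Spearman's rho 0.69 and 0.81 across the 77 genes), while its rho with the signal was -0.19 and -0.20, against 0.20 and 0.25 over all genes open in both.

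The family's footprints were found again in the other library more often than most. Of 578 footprints in replicate 1, 75.3% (95% Wilson interval 71.6 to 78.6, counting error only) overlapped a footprint of replicate 2 by at least 1 bp, against 55.2% over all promoters. Of 521 in replicate 2, 72.7% (68.8 to 76.4) overlapped one of replicate 1, against 57.8%. The 4046 other genes of the family's middle signal range came to 67.4% in either direction, and mitochondrial ribosomal protein genes to 74.0% and 75.4%. The median footprint was 12 bp wide in replicate 1 and 14 bp in replicate 2, against 11 and 12 bp over all open genes. In replicate 1, 50 of the 578 (8.65%) were at least 30 bp wide, against 6.45% for other genes, and in replicate 2, 65 of the 521 (12.5%), against 9.94%.

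Footprints were densest just upstream of the start, as they were at other genes open in both. Between positions -100 and -51 from the principal start, a base lay under a footprint at 35.0% of the family's open genes on average in replicate 1 and 39.1% in replicate 2, against 27.01% and 28.6% of other genes open in both. Between -50 and -1 the values were 34.2% and 35.3%, against 30.1% and 31.3%. From the start base to position 49 they were 29.2% and 32.1%, against 21.0% and 22.9%. Between -250 and -201 they were 11.4% and 10.6%, close to the 10.2% and 11.1% of other genes. The coverage was highest at -48 in replicate 1 (46.8%) and at -52 in replicate 2 (45.5%), against -16 (31.2%) and -14 (32.5%) for other genes.

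**Figure D3:**
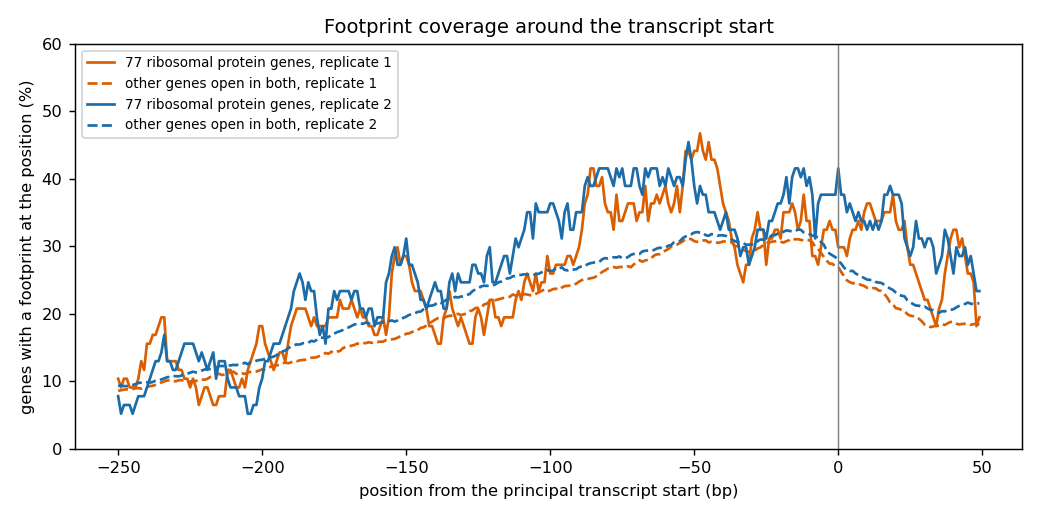
Share of genes with a footprint (vertical axis, %) at each base from 250 before to 49 after the principal transcript start, for the 77 open ribosomal protein genes (solid) and other genes open in both libraries (dashed), in replicate 1 (orange) and replicate 2 (blue). The solid lines reach 46.8% at -48 and 45.5% at -52, and the dashed lines stay at or below 31.2% and 32.5%.

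Per gene, a median of 60 of the 300 bases from 250 before to 49 after the start lay under a footprint in both libraries. Other genes open in both had 41, and those of the family's middle signal range had 59.

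Short consensus sequences of known promoter factors were searched on both strands in those 300 bases of all 80 genes and of all other protein-coding genes. The one with the highest ratio of its share in the family to its share in other genes was TCTCGCGA, the larger part of a palindromic element bound by BANP, a factor of CpG island promoters that needs the site unmethylated. It stood at 13 of 80 genes (16.25%), against 1.33% of other genes and 2.14% of other genes open in both. The full palindrome of 10 bases, in which both strands match, stood at 7 of 80 (8.75%), against 0.576% and 0.922%. Mitochondrial ribosomal protein genes had the 8 bases at 2 of 78. This difference was described and not tested.

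Among the 13 genes, 7 of the large and 6 of the small subunit, were Rpl4, Rpl7a, Rpl10a, Rpl17, Rpl23a, Rpl26, Rpl27a, Rps6, Rps15a, Rps19 and Rps28. The sites of 6 of them are shown with 11 bases on either side, the match in capitals; each runs in the direction of transcription.
Rpl7a: agggcgcctgcTCTCGCGAtatctgcggcc
Rps28: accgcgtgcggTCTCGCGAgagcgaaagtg
Rpl10a: taacgggcaacTCTCGCGAgaacgcgggct
Rpl26: cgctccgagacTCTCGCGAgatctcgcggc
Rps15a: tgaccatgaagTCTCGCGAtagcgcttccg
Rps6: ccgccggctgtTCTCGCGAgaacttagagc

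In the same order these lie at chr2:26910744-26910773 (plus strand), chr17:33824545-33824574 (minus strand), chr17:28328523-28328552 (plus strand), chr11:68901529-68901558 (plus strand), chr7:118116195-118116224 (minus strand), chr4:86857400-86857429 (minus strand) of GRCm38.p6. The matches began at -9, -1, -34, -43, -25 and -6 from the principal start. Over all 13 genes there were 20 matches, the palindrome giving 2 that overlap. Of these, 15 began between -100 and 0.

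Most matches to the element were under a footprint, in the family as at other genes. Of the 20 matches, which count a palindrome as 2, 19 (95%) touched a footprint in replicate 1 and 17 (85%) in replicate 2. In both libraries 17 did so. Of the 411 matches at other genes open in both, 81.5% did in replicate 1 and 81.3% in replicate 2. At 11 of the 13 genes a match was under a footprint in both libraries. The exceptions were Rps19, with none in either, and Rpl4, with one in replicate 1 only, and these were the genes whose match lay farthest from the start, at -221 and -243.

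Genes with the element had higher median signals than the rest, and the difference was not tested. Their median was 7.83 in replicate 1 and 15.5 in replicate 2, against 6.08 and 10.7 for the 64 open genes without it. The ranges overlapped: Rpl7a was at 13.4 and 25.7, and Rpl23a at 4.03 and 3.69. Of the 10 strongest promoters, 5 had the element (Rpl7a, Rps28, Rpl10a, Rpl26 and Rps19). Higher medians were not particular to this element. Open genes with the consensus of SP and KLF factors had 6.99 and 13.1, against 5.76 and 10.4 without it. With the full cAMP response element they had 7.72 and 12.2, against 6.37 and 11.2. Medians were lower with the YY1 consensus, 5.90 and 10.8 against 6.39 and 11.5. They were lower as well with that of THAP11 and ZNF143, 5.86 and 9.50 against 6.41 and 11.7.

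**Figure D4:**
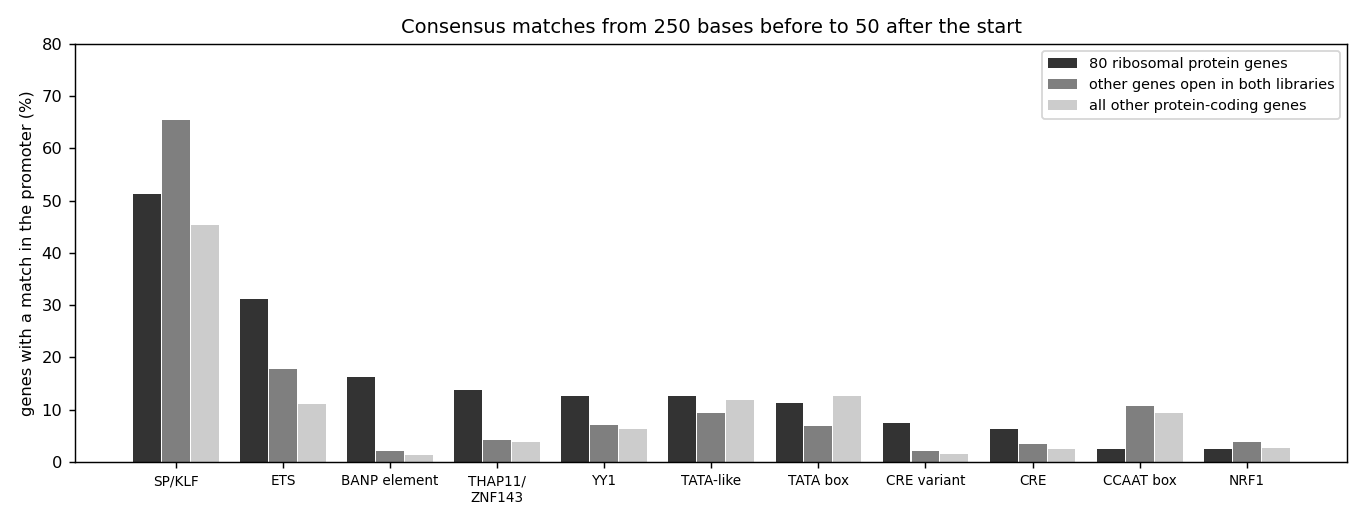
Share of genes (vertical axis, %) with a match to each consensus from 250 bases before to 50 after the principal start, for the 80 ribosomal protein genes (black), other genes open in both libraries (dark grey) and all other protein-coding genes (light grey). The BANP element stands at 16.25% against 2.14% and 1.33%, and the CCAAT box at 2.50% against 10.6% and 9.31%.

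The ETS consensus CCGGAAG, bound by GABPA and its relatives, was at 25 of 80 genes (31.25%), against 11.1% of other genes and 17.7% of those open in both. It was as common at mitochondrial ribosomal protein genes (37.2%). Of its 33 matches in the cytosolic family, 15 (45.5%) touched a footprint in replicate 1 and 20 (60.6%) in replicate 2. Over the 31 matches at the 77 open members the shares were 48.4% and 64.5%. At other genes open in both the shares were 54.0% and 60.5%, and at mitochondrial ribosomal protein genes 84.8% and 72.7%. Rps14 held 4 matches, the most of any member. The median signal of open genes with it, 6.33 and 11.6, was close to that of genes without it, 6.56 and 11.2.

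ACTACAA, part of the element of THAP11 and ZNF143, was at 13.75% of the family, against 3.73% of other genes and 4.22% of those open in both. The YY1 consensus AAGATGG was at 12.5%, against 6.30% and 7.13%. Its median position in the family was 8.5, after the start, against -59.5 at other genes open in both. Mitochondrial ribosomal protein genes had it at 17.9%, with a median position of 2.5, also after the start. The cAMP response element TGACGTCA was at 6.25%, against 2.47% and 3.45%, and TGACGTA at 7.5%, against 1.48% and 2.14%. At Rpl13, Rpl27a, Rps9 and Rps29 the full element was under a footprint in both libraries. At Rpl26, where it lay at -151, it was under none in either. That made 80% of its matches in each library, against 86.2% in replicate 1 and 90.9% in replicate 2 at other genes open in both.

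Other consensus sequences stood below their share at open promoters. GGGCGG, bound by SP and KLF factors, was at 51.25% of the family, above the 45.4% of other genes but below the 65.4% of those open in both. The NRF1 consensus CGCATGCG was at 2.50%, against 2.66% and 3.76%. The CCAAT box, searched as AGCCAAT after the Rplp0 sequence was seen, was at 2 genes (2.50%), against 9.31% and 10.6%. The absence of these letters from the window says nothing of the factor.

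TATAAA was at 9 of 80 genes (11.25%), against 12.6% of other genes and 6.85% of those open in both. Of its 10 matches, 6 touched a footprint in replicate 1 and 7 in replicate 2. At other genes open in both, 16.5% and 17.3% of matches did. The matches at Rpl3, Rplp0, Rps2 and Rps28 lay 17 to 37 bases after the annotated principal start, each under a footprint in both libraries. TTTAAA was at 12.5%, against 11.9% and 9.27%.

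Pyrimidine tracts at the start were taken from RefSeq transcript starts (GRCm38.p6), which matched 60 of the 80 genes. Of these 60, 13 (21.7%) began with a C within a run of at least 5 pyrimidines, against 2.64% of 16479 other genes and none of 69 mitochondrial ribosomal protein genes. A run of at least 8 within 20 bases of the start was found at 30 of 60 (50%), against 18.7% and 18.8%. With the GENCODE principal start, which can differ from RefSeq's, the shares over all 80 genes were 10% and 37.5%, against 2.24% and 15.6% of other genes and 5.13% and 14.1% of mitochondrial ribosomal protein genes.

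The tract is shown at the 5 genes with the longest runs, with 15 bases before the RefSeq start and 15 from it on, and the run from the start base on in capitals.
Rpl15: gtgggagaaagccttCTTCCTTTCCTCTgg
Rpl35: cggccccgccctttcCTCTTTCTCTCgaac
Rps10: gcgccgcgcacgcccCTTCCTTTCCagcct
Rps18: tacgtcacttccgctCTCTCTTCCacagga
Rps6: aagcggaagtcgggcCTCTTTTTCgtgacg

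In the same order these lie at chr14:18270972-18271001 (minus strand), chr2:39005117-39005146 (minus strand), chr17:27635230-27635259 (minus strand), chr17:33955651-33955680 (minus strand) and chr4:86857353-86857382 (minus strand) of GRCm38.p6. Their runs were 13, 11, 10, 9 and 9 bases long. All 13 RefSeq starts of this kind lay downstream of the GENCODE principal start, by 2 bases at Rps21 to 493 bases at Rpl35. At Rpl35 the strongest peak of replicate 1, from 304 to 583 bases downstream of the GENCODE start, covered the RefSeq one. Mean percentiles of the 13 genes ran from 48.0 at Rpl35 to 89.5 at Rpl14, so the tract was found at middling as well as stronger promoters.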

How the data were processed

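DNase-seq was deposited for 2 libraries labelled as thymus, each processed alone; the markers of replicate 1 go against that label. Per the labels the assembly is mm10. The authors' peak lists give a signal per peak, with no statement of its scaling. The deposited FDR tables hold p-value-type figures (a false discovery rate for each interval) below 0.05 only. The deposited footprint lists carry a constant score of 0.01, so their intervals alone were used. Aligner, callers and read depth are not stated in what was used. The shorter peak list was the main one.

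Promoters, strongest peaks, percentiles, widths, footprints and motif matches were computed per library in Python 3.11.15 with pandas 2.3.3, pysam 0.24.0 and the GENCODE vM21 annotation. The overlap code was tested on simulated peaks. The principal start is the APPRIS principal transcript's, then the best supported, then the longest. Sequence is that of the reference, and the CAST allele of these hybrids was not used. With blastn 2.17.0, 1 of 77 strongest peaks of replicate 1 (Rpl37a) and 0 of 77 of replicate 2 had another genomic copy of at least 90% identity over 80% of its length.

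Members and lists were chosen with earlier results of these data known. Genes named with values were the 10 highest and 6 lowest in mean percentile, the closed ones, the 4 highest and 4 lowest in signal ratio, footprint number and width, the paralogs and the stalk proteins; genes at motif matches were named after their values were seen. A few genes are not reported here by name. No test was run. Alternatives were the promoter window, starts, peak list, peak threshold, footprint rule, membership and each library alone.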

Additional observations from a re-analysis of the deposited data

How the results depend on the processing

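The number of members open in both libraries was 77 under windows of 500 and 2500 bp, with the principal start only, with the longer list and with the stronger 50% of peaks, and 77 in each library alone. The median percentile, 69.0 over both libraries, was 70.8 with the longer list, 64.4 with the stronger 50% of peaks, 61.2 with promoter peaks summed and 70.6 with Rps3a1 and 6 related genes added (chosen after seeing the data). It ran from 68.1 to 69.8 with 1 library left out, as did the median width from 220 to 260 bp, the footprints per promoter from 6 to 7 and the shared footprints from 72.7% to 75.3%. Footprints per promoter, 6.5 at first, came to 5.5 with the principal start only and 5.5 with whole footprints only. Shared footprints, 74.0%, came to 71.6% at 2500 bp and 69.4% with a 50% overlap. The gap between autosomal and X-linked members, 38.0 percentile points, was 43.5 with the stronger 50% of peaks and 32.7 to 40.3 with 1 library left out; its alternatives were chosen after seeing the data. The cause of these moves was not tested. Of single genes, Rpl18 fell from a mean percentile of 87.2 to 72.7 with the principal start only. No paired analysis was possible because there is 1 group. Unknown read depth limits all of these values.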
